A study of Mus musculus with 12 samples.

Results

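The genes described here encode nuclear subunits of the mitochondrial respiratory chain and of ATP synthase, together with factors that assemble them. They were chosen by name alone: symbols that begin with Nduf, Cox followed by a digit, Uqcr or Atp5, and the symbols Sdha to Sdhd, each with a value above 0 in at least 4 of the 12 libraries. 101 of the 24394 genes listed in every library had such a name, and 98 of them met the requirement on values. By role, 36 are subunits of complex I, 4 of complex II, 8 of complex III, 16 of complex IV and 15 of complex V, and 19 are assembly factors or relatives of subunits. The 3 genes left out were Cox7b2 and Cox8c, listed at 0 in all 12 libraries and Atp5s, which was above 0 in 2 libraries. Just inside the requirement stood Cox6a2 and Cox8b, each above 0 in 4 libraries.

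The respiratory chain sits in the inner mitochondrial membrane. Complex I takes electrons from NADH and complex II takes them from succinate in the citric acid cycle; both pass them through ubiquinone to complex III, and cytochrome c carries them on to complex IV, which reduces oxygen. Complexes I, III and IV pump protons, and complex V, the ATP synthase, uses the resulting gradient to make ATP. All subunits of complex II and most subunits of the other complexes are encoded in the nucleus. Those with the names given above are the genes described here, and nuclear subunits with other names are not among them. The subunits encoded in mitochondrial DNA were not analysed here. Endothelial cells are known for drawing most of their ATP from glycolysis, while using respiration for biosynthesis and redox balance.

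The cells are lung endothelial cells of C57BL/6J mice, isolated by FACS at postnatal day 5 and sequenced as 3 groups of 4 libraries. L12YT-ECKO mice carried the VE-cadherin-CreERT2 driver, which acts in endothelial cells, with floxed alleles of Lats1, Lats2, Yap and TAZ (Lats1f/f and Lats2 f/f, with Yapf/f and TAZf/f). L12-ECKO mice carried the same driver with Lats1f/f and Lats2 f/f. Lats1 and Lats2 are the Hippo pathway kinases that restrain the co-activators YAP and TAZ, encoded by Yap1 and Wwtr1. The third group is labelled wild type (WT); the labels do not say whether these mice carried the driver, nor when or whether any group received the inducer on which CreERT2 depends. Whether the replicates are separate animals is not stated, and the p-values therefore measure only the spread between these libraries. Values are the authors' normalized expression from 3′ end sequencing, read here as log2; no label states the scale, which was inferred from the values, and every fold and doubling given rests on it. A value of 0 can mean that no read of the gene was drawn.

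The libraries held between 9836 and 13060 genes above 0. Wwtr1 averaged 8.81 ± 0.51 in L12YT-ECKO, 11.18 ± 0.71 in L12-ECKO and 11.81 ± 0.19 in WT (SD, n = 4 each), and Yap1 averaged 7.72 ± 0.69, 9.97 ± 0.53 and 9.79 ± 0.24 in the same order of groups. Lats2 averaged 8.97 ± 0.43 in L12YT-ECKO, 9.93 ± 0.29 in L12-ECKO and 8.93 ± 0.42 in WT, and Lats1 ranged from 0 to 7.90 in L12YT-ECKO, from 0 to 7.40 in L12-ECKO and from 5.32 to 7.45 in WT. Which exons were deleted is not stated, and a 3′ tag that lies outside them does not check a deletion. The mean level of 12 pan-endothelial markers was 13.26 to 13.53 in L12YT-ECKO libraries, 12.95 to 13.24 in L12-ECKO libraries and 13.26 to 13.46 in WT libraries. 5 libraries, L12YT-ECKO replicates 3 and 4 with L12-ECKO replicates 2 to 4, share a block of displaced rows in their tables and are treated here as a batch; no label names one. Of those 5, the mean of 8 hepatocyte markers was 5.85 and 7.14 in the L12YT-ECKO libraries and 5.18 to 7.88 in the L12-ECKO libraries. This mean was 1.03, 1.55, 3.28 and 4.003 in the WT libraries. The knockout libraries without displaced rows lay within the WT range. They had 1.496 and 3.034 in L12YT-ECKO replicates 1 and 2 and 1.63 in L12-ECKO replicate 1. By Xist and Ddx3y, 1 L12YT-ECKO, 3 L12-ECKO and 1 WT library came from females. In these bulk samples, fewer cells of a type and less RNA per cell cannot be told apart.

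Respiratory chain genes were expressed throughout. 82 of the 98 were above 0 in all 12 libraries, among them 35 of 36 complex I genes and every gene of complexes II, III and V. 94 passed the filter on low values and were tested; the 4 that did not were Cox4i2, Cox6a2, Cox8b and the complex I assembly factor Ndufaf5. The median over the 94 of the mean level in the 12 libraries was 9.46, against 7.47 over all 11634 genes tested, and 15 of the 94 lay in the top 10% of all genes tested. Levels of different genes are set side by side here on the log2 scale of 3′ tags, which has no length term. The median of the gene means was 9.10 for complex I, 9.503 for complex II, 9.88 for complex III, 10.32 for complex IV, 10.17 for complex V and 6.45 for the assembly factors and relatives.

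Several subunits had values near 11 or above in every group. Atp5g3, one of the genes for the c subunit that forms the rotor ring of ATP synthase, averaged 13.83 ± 0.18 in L12YT-ECKO, 14.29 ± 0.47 in L12-ECKO and 13.82 ± 0.33 in WT (SD, n = 4 each). Atp5a1, the catalytic-head subunit alpha, averaged 11.33 ± 0.28, 11.80 ± 0.29 and 11.30 ± 0.52 in the same groups. Cox8a and Cox6c, small subunits of complex IV, averaged 11.33 ± 0.39 and 11.35 ± 0.15 in L12YT-ECKO, 11.42 ± 0.68 and 11.49 ± 0.55 in L12-ECKO, and 11.39 ± 0.12 and 11.06 ± 0.19 in WT. Uqcrh, the hinge protein of complex III, averaged 11.42 ± 0.23, 11.03 ± 0.52 and 11.61 ± 0.52 in the 3 groups, and the complex I accessory subunit Ndufa2 averaged 11.18 ± 0.41, 11.03 ± 0.33 and 11.26 ± 0.22. The other highest subunits of each complex were Ndufb8 and Ndufs6 in complex I, Sdhc, Sdha and Sdhb in complex II, Uqcr10 and Uqcrfs1 in complex III, Cox4i1 in complex IV and Atp5l in complex V. The lowest tested subunit of complex I was Ndufab1, the mitochondrial acyl carrier protein, at 3.68 ± 0.59 in L12YT-ECKO, 5.09 ± 2.24 in L12-ECKO and 3.44 ± 2.40 in WT.

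The level of the chain as a whole varied more among knockout libraries than among WT libraries. The median over the 94 tested genes was 9.30, 9.67, 9.12 and 8.99 in L12YT-ECKO replicates 1 to 4, 9.32, 9.74, 9.68 and 8.87 in L12-ECKO replicates 1 to 4, and 9.38, 9.44, 9.46 and 9.42 in WT replicates 1 to 4. L12-ECKO replicate 4 and L12YT-ECKO replicate 4 were lowest, and the knockout groups overlap with WT on both sides. The means of these library medians were 9.27 ± 0.30, 9.40 ± 0.40 and 9.42 ± 0.03 in L12YT-ECKO, L12-ECKO and WT (SD, n = 4 each). In complex I the same libraries were lowest, with medians of 9.03, 9.31, 8.94 and 8.57 in L12YT-ECKO, 8.93, 9.46, 9.16 and 8.53 in L12-ECKO, and 9.21, 9.10, 9.12 and 9.23 in WT. In complex V the same 2 libraries were lowest, at 9.60 in L12YT-ECKO replicate 4 and 9.77 in L12-ECKO replicate 4, where WT lay between 10.15 and 10.45. Complex II went the other way, with SDs of its library medians of 0.26 in L12YT-ECKO, 0.19 in L12-ECKO and 0.36 in WT. In every other complex the SD was smallest in WT. Whether other sets of genes also vary more among the knockout libraries was not tested. Among the libraries with displaced rows and higher hepatocyte markers, L12YT-ECKO replicates 3 and 4 had the lowest medians of their group over the 94 genes, while L12-ECKO replicates 2 and 3 had the highest of theirs. Within groups, the median SD of the 94 genes was 0.58, against 1.04 over all genes tested; among genes with a mean of 8 to 12 it was 0.51 for 70 respiratory chain genes and 0.57 for 4536 genes.

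**Figure D1:**
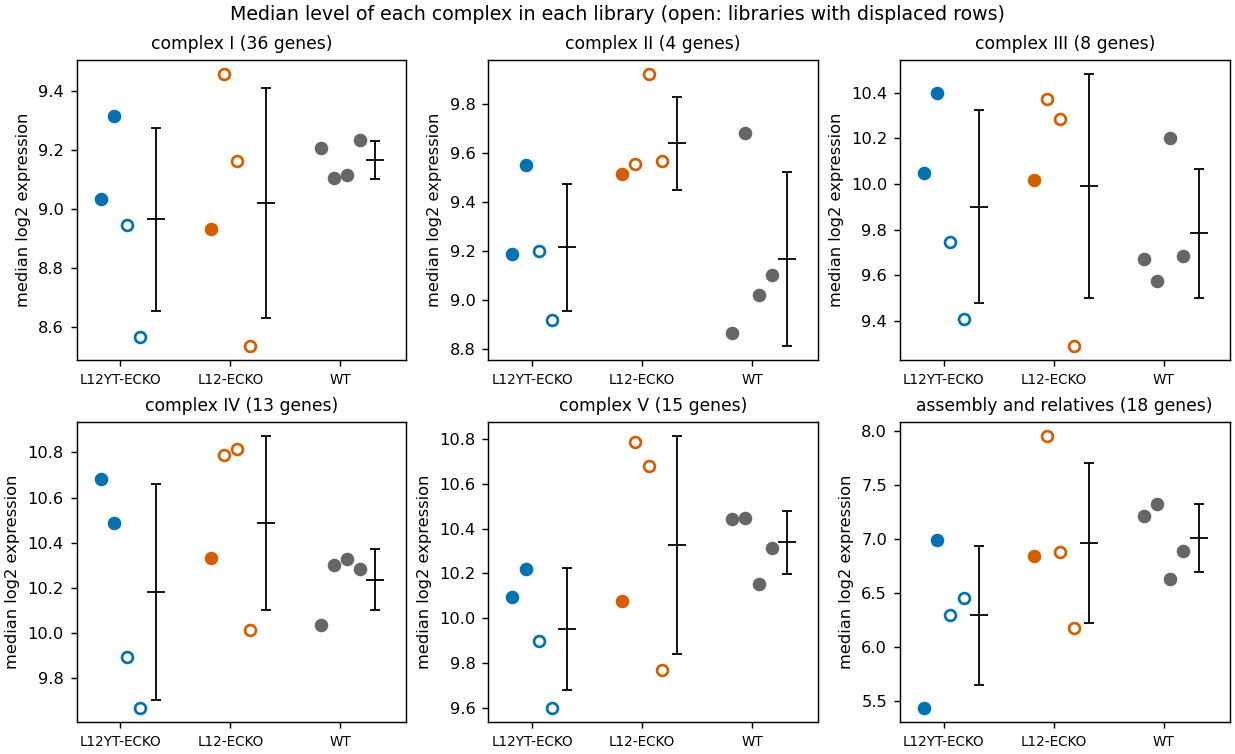
Median log2 expression (vertical axis, log2 units, each panel with its own range that does not start at 0) of the tested genes of each respiratory complex in each library of the 3 groups; points are libraries, open points are those with displaced rows, and bars are the mean ± SD of 4 libraries. The WT libraries of complex I lie between 9.10 and 9.23, inside the range of the L12YT-ECKO and L12-ECKO libraries.

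L12-ECKO was compared with WT, and these groups differ in more than the kinase alleles. 3 L12-ECKO libraries and 1 WT library came from females. L12-ECKO replicates 2 to 4 have displaced rows, while no WT library does. The comparison is therefore not one of genotype alone. 2 of the 94 genes rose and none fell: Cox17, a copper chaperone needed to build complex IV, by 2.26 on the log2 scale, and Ndufa1, an accessory subunit of complex I, by 1.68. Over all genes tested, limma called 0.481% at an adjusted p under 0.05, 0.292% higher and 0.189% lower. No other gene of the chain passed. 38 of the 94 differences (40.4%) were positive and 56 negative, with a median of -0.16, against 49.0% positive and a median of -0.02 over all genes tested. At an unadjusted p under 0.05, 8 genes were higher, where 6.31% of all genes were, and 2 were lower, where 5.91% were. In 6 genes every L12-ECKO library lay above every WT library, and in 4 every one lay below, where 2.97% and 3.36% of all genes were separated in these directions. The split by sign varied with the libraries used: without L12-ECKO replicate 4, 51 of the 94 were positive with a median of 0.06. With the batch as a covariate 48 were positive with a median of 0.03. Within the libraries without displaced rows, which hold all 4 WT libraries and L12-ECKO replicate 1, 38 were positive with a median of -0.15.

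Cox17 (ENSMUSG00000046516, chr16:38346991-38352763, plus strand, GRCm38) hands copper to the proteins that metallate the copper centres of complex IV. It had values of 9.10, 9.32, 9.90 and 9.64 in L12YT-ECKO, 10.91, 10.64, 9.97 and 10.59 in L12-ECKO, and 7.61, 7.68, 9.35 and 8.41 in WT. All 4 L12-ECKO libraries lay above all other libraries, and the L12YT-ECKO libraries overlapped with the highest WT library. The difference between L12-ECKO and WT was 2.26 (SE 0.41, limma adjusted p = 0.0167), a fold of 4.80. The call was kept in 15 of 24 alternatives, with adjusted p from 0.00366 to 0.238 across them. It was lost without WT replicate 1 (adjusted p = 0.067), WT replicate 2 (0.0748), L12-ECKO replicate 1 (0.0619) or L12-ECKO replicate 2 (0.0535). It was also lost with sex as a covariate (0.0639), within the male libraries (0.23) and without a trend in the prior variance (0.132). With the batch as a covariate the difference was 2.19 (adjusted p = 0.148), and within the libraries without displaced rows, which hold 1 of the 4 L12-ECKO libraries, it was 2.64 (adjusted p = 0.238). That library, replicate 1, had the highest Cox17 value and also the highest means of 6 neutrophil and 6 haematopoietic markers, at 11.005 and 5.97, where the other libraries reached 6.29 and 2.94; without it the difference was 2.14, and the part of these cells was not tested. No other annotated transcript end matched that of Cox17 at 95% identity over at least 75 bases.

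Ndufa1 (ENSMUSG00000016427, chrX:37187588-37191163, minus strand, GRCm38) encodes a small membrane subunit that complex I needs for its assembly, as known from human and hamster cells. Its values were 10.01, 10.49, 10.14 and 9.87 in L12YT-ECKO, 11.25, 11.41, 11.32 and 10.51 in L12-ECKO, and 8.99, 8.83, 10.47 and 9.497 in WT. L12-ECKO replicate 4, at 10.51, lay just above WT replicate 3, at 10.47, so the groups were separated by a narrow gap. The difference was 1.68 (SE 0.36, limma adjusted p = 0.0474), a fold of 3.19. The call was kept in 6 of 24 alternatives, with adjusted p from 0.0103 to 0.437, and in 2 of the 12 that left out 1 library: without WT replicate 3 or without L12-ECKO replicate 4. With the batch as a covariate the difference was 1.84 (adjusted p = 0.191). Ndufa1 is X-linked, and the libraries of L12-ECKO replicates 2 to 4, WT replicate 4 and L12YT-ECKO replicate 3 are the female ones. The male L12-ECKO library, replicate 1 with the high neutrophil markers, had 11.25, against 8.99, 8.83 and 10.47 in the male WT libraries; within the male libraries the difference was 1.82 (adjusted p = 0.435), and with sex as a covariate it was 1.69 (adjusted p = 0.129).

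**Figure D2:**
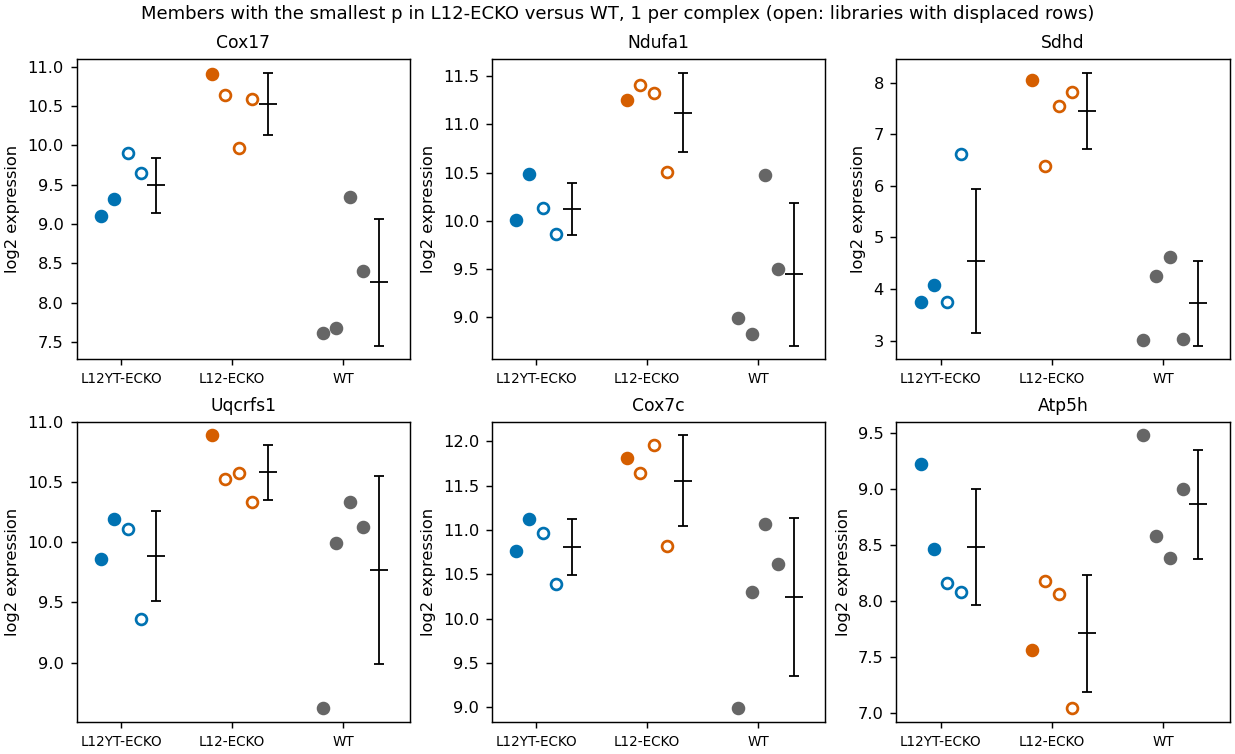
Log2 expression (vertical axis, each panel with its own range that does not start at 0) in each library for Cox17 and for the gene of each complex with the smallest p in L12-ECKO versus WT; points are libraries, open points are those with displaced rows, and bars are the mean ± SD of 4 libraries. Only Cox17 and Ndufa1 passed the test; the L12-ECKO points of Sdhd, between 6.39 and 8.06, lie above those of WT, between 3.01 and 4.61, but its adjusted p was 0.21.

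Among the other complex I genes no difference passed. 25 of the 36 were lower in L12-ECKO and 11 higher, counting Ndufa1, with a median difference of -0.20. The second smallest p belonged to Ndufb3, an accessory subunit, with 10.48, 10.37, 11.16 and 10.67 in L12YT-ECKO, 10.89, 11.12, 10.95 and 11.60 in L12-ECKO, and 8.51, 9.66, 10.62 and 10.33 in WT. All L12-ECKO libraries again lay above all WT libraries, with a difference of 1.36 (SE 0.38, limma adjusted p = 0.145); a processed pseudogene, Gm45930, matches the end of this transcript at 97.8% over 136 bases, and reads of the pair could have been split by the authors' mapping. Ndufs6, Ndufa2 and Ndufb8, the highest genes of the complex, differed by -0.60, -0.23 and -0.18.

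Complex II stood at the highest median difference, 0.67, with 3 of its 4 genes higher in L12-ECKO and none past the test. Sdhd, which encodes the small membrane anchor subunit, contributed the largest value of all 94 genes. It had 3.75, 4.08, 3.74 and 6.62 in L12YT-ECKO, 8.06, 6.39, 7.55 and 7.81 in L12-ECKO, and 3.01, 4.25, 4.61 and 3.04 in WT. WT replicates 1 and 4 stood at the lowest value above 0 of their libraries, and the groups did not overlap. The difference was 3.72 (SE 1.24, limma adjusted p = 0.21); it was 3.44 with the batch as a covariate and 3.48 to 4.08 when 1 library was left out. Sdhc, the other membrane anchor, had 9.75, 10.13, 10.20 and 10.27 in L12-ECKO against 9.14, 9.73, 9.66 and 9.28 in WT, also without overlap, with a difference of 0.63 (adjusted p = 0.469). Sdha, the flavoprotein that oxidizes succinate, differed by 0.70 (adjusted p = 0.452) and Sdhb, the iron-sulfur subunit, by -0.15 (adjusted p = 0.916). The groups of both overlapped.

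In complex III 4 of 8 genes were higher and 4 lower, with a median of -0.10. Uqcrfs1, the Rieske iron-sulfur protein, had 9.86, 10.19, 10.11 and 9.36 in L12YT-ECKO, 10.89, 10.52, 10.57 and 10.34 in L12-ECKO, and 8.62, 9.995, 10.34 and 10.12 in WT. The lowest L12-ECKO and the highest WT value nearly touched, and the difference of 0.81 (SE 0.37, limma adjusted p = 0.385) was 0.43 without WT replicate 1. Uqcrh and Uqcr10 differed by -0.58 and -0.36, and Uqcrc1, a core protein and the lowest gene of the complex, by -0.47.

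In complex IV 7 of 13 genes were higher and 6 lower, with a median of 0.02. Cox7c, a small subunit, had 10.76, 11.13, 10.97 and 10.39 in L12YT-ECKO, 11.81, 11.65, 11.96 and 10.81 in L12-ECKO, and 8.99, 10.30, 11.07 and 10.61 in WT. Only L12-ECKO replicate 4 lay within the WT range, and the difference was 1.31 (SE 0.38, limma adjusted p = 0.147). 4 near-identical transcript ends exist elsewhere in the genome for Cox7c, so its count is uncertain. Cox4i1, the ubiquitous form of a regulatory subunit, differed by -0.20, Cox8a by 0.02 and Cox6c by 0.43.

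In complex V 6 of 15 genes were higher and 9 lower, with a median of -0.16. Atp5h, subunit d of the stalk that holds the catalytic head, had 9.22, 8.47, 8.17 and 8.08 in L12YT-ECKO, 7.56, 8.18, 8.07 and 7.05 in L12-ECKO, and 9.48, 8.58, 8.39 and 9.003 in WT. All L12-ECKO libraries lay below all WT libraries, with a difference of -1.15 (SE 0.46, limma adjusted p = 0.312), and 2 pseudogenes share the end of its transcript. Atp5j, coupling factor 6 of the same stalk, differed by 0.85 (adjusted p = 0.341), Atp5a1 by 0.50, Atp5g3 by 0.47 and Atp5l, subunit g of the membrane sector, by 0.36. Near-identical ends elsewhere, which make values uncertain where reads could be split, were found for 19 of the 98 genes. Besides those given, they include Cox6c, Cox6a1, Uqcrh, Ndufs3, Atp5g1, Atp5g2 and Atp5j, and they are most numerous for Atp5l.

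Assembly factors and relatives had a median difference of -0.14, with 7 of 18 higher. Their precision was uneven: the half-width of the 95% interval had a median of 2.91, against 0.75 for complex V, and ranged from 0.64 to 4.10. Ndufaf6, a complex I assembly factor, had the most negative difference. Its values were 0, 4.46, 2.47 and 6.15 in L12YT-ECKO, 2.18, 0, 0 and 0 in L12-ECKO, and 5.13, 5.18, 7.73 and 4.46 in WT. Its groups did not overlap, and the difference of -5.08 (SE 1.65, limma adjusted p = 0.196) rests on 3 libraries in which it is listed at 0. Among these is L12-ECKO replicate 3, whose lowest value above 0 was 4.98, above the WT replicate 4 value of 4.46. The size of the difference is therefore uncertain. The complex I assembly factors Ndufaf1 and Ndufaf5 were above 0 in 6 libraries each, and Ndufaf1 had 0, 0, 3.01 and 5.15 in L12YT-ECKO, 5.57, 1.28, 0 and 0 in L12-ECKO, and 0, 5.10, 5.54 and 0 in WT. Cox11, which passes copper on within the same pathway as Cox17, had 4.61, 5.44, 4.98 and 3.04 in L12-ECKO against 5.74, 5.56, 5.54 and 6.85 in WT, and the difference was -1.40 (adjusted p = 0.672). The 4.98 of Cox11 is the lowest value above 0 of L12-ECKO replicate 3.

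**Figure D3:**
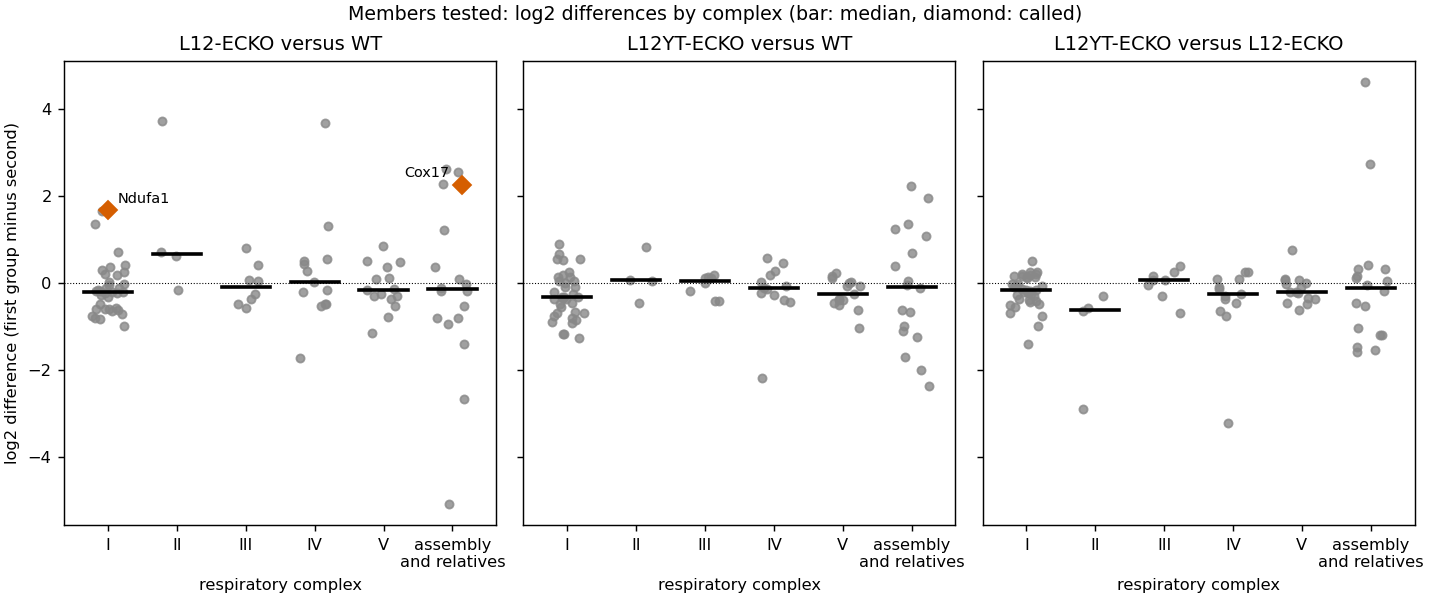
Log2 difference (vertical axis, first named group minus the second) of each of the 94 tested genes, by respiratory complex (horizontal axis), in the 3 comparisons; bars are medians over the genes of a complex, and diamonds are the 2 genes called at an adjusted p under 0.05. Medians lie between -0.20 and 0.67 in L12-ECKO versus WT, and the assembly factors and relatives spread from -5.08 to 2.62.

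L12YT-ECKO, with floxed Yap and TAZ alleles besides those of the kinases, was set against the same 4 WT libraries. None of these has displaced rows, while L12YT-ECKO replicates 3 and 4 do. No respiratory chain gene passed the limma test, where 0.0086% of all genes tested were called, which is 1 gene, lower in L12YT-ECKO. At an unadjusted p under 0.05, 2 were higher and 3 lower, where 4.13% and 2.11% of all genes were. 37 of the 94 differences (39.4%) were positive and 57 negative, with a median of -0.17, against 54.3% positive and a median of 0.08 over all genes tested. In 5 genes every L12YT-ECKO library lay below every WT library and in none above, where 2.17% and 2.54% of all genes were separated. Within the libraries without displaced rows the median was 0.05, with 51 of 94 positive.

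By complex, the median differences of L12YT-ECKO from WT were -0.32 for complex I, 0.06 for complex II, 0.05 for complex III, -0.11 for complex IV, -0.24 for complex V and -0.09 for the assembly factors and relatives. In complex I, 24 of 36 genes were lower. Ndufa7, an accessory subunit, had the smallest p there, with 10.65, 10.56, 9.14 and 8.997 in L12YT-ECKO, 10.63, 9.89, 10.05 and 9.42 in L12-ECKO, and 11.1, 11, 10.53 and 10.42 in WT; the difference was -0.92 (SE 0.40, limma adjusted p = 0.758). L12YT-ECKO replicates 1 and 2 overlapped with WT and replicates 3 and 4, which have displaced rows, did not. The 5 genes without overlap were the complex I genes Ndufa3, Ndufs3 and Ndufv1, with Atp5g1 in complex V and the assembly factor Cox11. Ndufs3 and Ndufv1 encode core subunits, with differences of -1.27 and -0.68. Atp5g1, another gene for the c subunit, had 9.33, 9.97, 9.24 and 9.46 in L12YT-ECKO against 11.45, 10.09, 10.19 and 10.37 in WT, with a difference of -1.02 (adjusted p = 0.784). The genes called in L12-ECKO lay in between: Cox17 differed from WT by 1.23 (SE 0.41, adjusted p = 0.672) and Ndufa1 by 0.68 (SE 0.36, adjusted p = 0.811), and in both the groups overlapped. Both genes were picked by their difference between L12-ECKO and WT, which favours such an order. In the remaining complexes the smallest p belonged to Sdhb with -0.46, Uqcr10 with -0.42 and Cox7c with 0.57. The most positive and most negative differences were 2.23 for Cox18, which inserts a complex IV subunit into the membrane and is listed at 0 in WT replicate 4, and -2.36 for Ndufaf6.

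L12YT-ECKO against L12-ECKO sets mice with floxed Yap and TAZ alleles besides those of the kinases against mice with floxed kinase alleles alone. The groups also differ in sex, with 1 and 3 female libraries, and in displaced rows, with 2 and 3 libraries. The same L12-ECKO libraries stood against WT above, so the values of the comparisons are not independent. No respiratory chain gene passed the limma test, where 0.0688% of all genes tested were called and 0.0602% were called lower. At an unadjusted p under 0.05, 1 was higher and 3 lower, where 3.98% and 2.1% of all genes were. 32 of the 94 differences were positive and 62 negative, with a median of -0.17, against 0.09 over all genes tested. In 3 genes every L12YT-ECKO library lay below every L12-ECKO library and in none above, where 1.62% and 2.75% of all genes were separated. These 3 were Cox17, Ndufa1 and Uqcrfs1.

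Cox17 differed by -1.03 (SE 0.41, limma adjusted p = 0.705), with the highest L12YT-ECKO value at 9.90 and the lowest L12-ECKO value at 9.97. Ndufa1 differed by -0.999 (SE 0.36, adjusted p = 0.634), with 10.49 and 10.51 as the nearest values. Uqcrfs1 differed by -0.70 (SE 0.37, adjusted p = 0.825). Sdhd differed by -2.91 (SE 1.24, adjusted p = 0.748): 3 L12YT-ECKO libraries lay between 3.74 and 4.08, and replicate 4, at 6.62, lay within the L12-ECKO range of 6.39 to 8.06. All 4 complex II genes were lower in L12YT-ECKO, with a median of -0.61. Cox19, which acts with Cox11 in copper delivery to complex IV as known from yeast, had the most positive difference, 4.62 (SE 1.80, adjusted p = 0.704), with 7.48, 5.85, 6.44 and 6.06 in L12YT-ECKO, 0, 6.51, 0 and 0.86 in L12-ECKO, and 0, 5.98, 5.57 and 6.46 in WT. Its values in L12-ECKO and WT mix libraries listed at 0 with libraries near 6. The most negative difference was -3.22 for Cox6b2, and the smallest p in complexes IV and V belonged to Cox6b1 with -0.64 and Atp5g3 with -0.46.

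The direction of this comparison differed between batches. The complex I median was -0.15 over all libraries, 0.18 within the libraries without displaced rows and -0.36 within those with displaced rows. The medians of complexes IV and V were -0.26 and -0.20 over all libraries, 0.12 and 0.18 without displaced rows and -0.27 and -0.40 with them. Complex II was lower in both batches, at -0.46 and -0.73. The batch without displaced rows holds 2 L12YT-ECKO and 1 L12-ECKO library, and the batch with them holds 2 and 3.

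**Figure D4:**
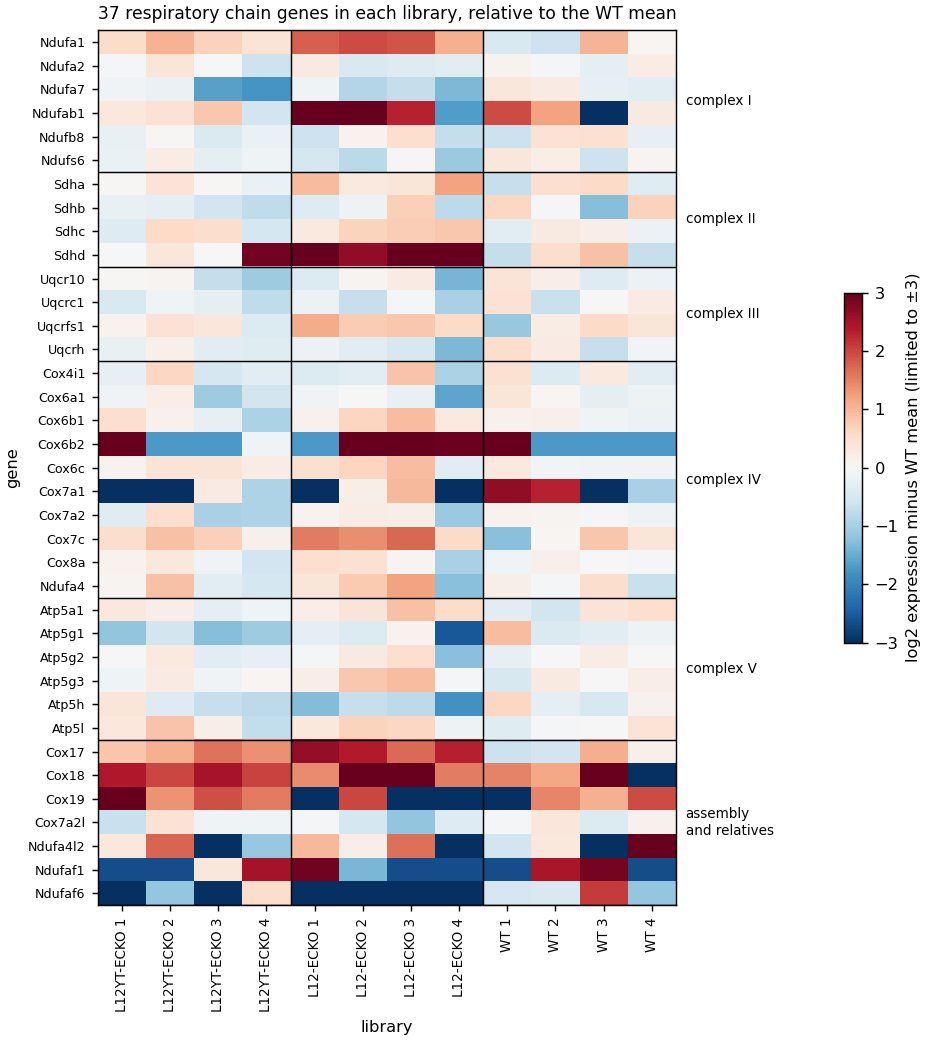
Log2 expression minus the WT mean (colour, limited to ±3 log2 units) of 37 tested genes that the text describes (vertical axis, by complex) in each of the 12 libraries (horizontal axis, L12YT-ECKO, L12-ECKO and WT). Most tiles of complexes I, III and V are pale, while Cox17, Ndufa1 and Sdhd are red in the 4 L12-ECKO libraries.

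The precision limits what could be seen. The median half-width of the 95% interval over the 94 genes was 0.87 on the log2 scale, from 0.48 for the narrowest to 4.73 for the widest. The interval lay entirely within a doubling in either direction for 31 genes in L12YT-ECKO versus WT, for 28 in L12YT-ECKO versus L12-ECKO and for 16 in L12-ECKO versus WT. Cox8a was one of them, at -0.06 (interval -0.71 to 0.59), -0.09 (-0.74 to 0.57) and 0.02 (-0.63 to 0.67) in these comparisons. Atp5b, the catalytic beta subunit of ATP synthase, was another, at 0.12 (-0.45 to 0.68), -0.01 (-0.58 to 0.56) and 0.12 (-0.44 to 0.69); Atp5b was chosen after its values were seen. For the other genes the interval reached a doubling or a halving.

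Many complex IV subunits have an alternative form used in particular tissues, and the c subunit of complex V is encoded by several genes. The ubiquitous forms Cox4i1, Cox6a1, Cox6b1, Cox7a2 and Cox8a were all near 10 to 11 in every group, while those known from heart and skeletal muscle were listed at 0 in many libraries. Cox6a2 was above 0 in 4 libraries, at 1.63 and 0.65 in L12YT-ECKO, 4.18 in L12-ECKO and 6.77 in WT, and Cox8b was above 0 in 4 as well, at 0.65 in L12YT-ECKO, 3.88 and 4.98 in L12-ECKO and 5.84 in WT. Cox7a1, the third muscle form, was above 0 in 7 libraries and ranged from 0 to 4.24 in L12YT-ECKO, from 0 to 4.98 in L12-ECKO and from 0 to 6.68 in WT. The 4.98 of Cox8b and Cox7a1 is the lowest value above 0 of L12-ECKO replicate 3. The mean of 8 heart muscle markers was 1.18 to 2.67 in L12YT-ECKO, 0.92 to 4.15 in L12-ECKO and 2.63 to 3.42 in WT libraries; their part in these values was not tested. Cox6b2, known as a testis form, had 7.14, 0, 0 and 1.63 in L12YT-ECKO, 0, 7.30, 9.69 and 4.66 in L12-ECKO, and 6.91, 0, 0 and 0 in WT.

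Cox4i2, a form of the regulatory subunit that is known from lung and responds to oxygen, was listed at 0 in all 4 WT libraries. It had 7.07, 4.46, 4.90 and 0.65 in L12YT-ECKO and 0.65, 1.28, 0 and 0 in L12-ECKO. The L12-ECKO values above 0 equal the lowest value above 0 of their libraries, and L12YT-ECKO replicates 1 to 3 lay above all L12-ECKO libraries. The gene did not pass the filter; without the filter its difference from WT in L12YT-ECKO was 4.27 (SE 1.43, limma adjusted p = 0.711), and from L12-ECKO 3.79 (adjusted p = 0.704). The mean of 8 mesenchymal markers was 7.59, 8.23, 6.88 and 6.79 in L12YT-ECKO replicates 1 to 4, 5.59 to 8.15 in L12-ECKO and 7.03 to 8.13 in WT. Their part in the Cox4i2 values was not tested. Ndufa4l2, a relative of Ndufa4 that is induced in low oxygen, ranged from 0 to 5.31, from 0 to 5.21 and from 0 to 7.33 in L12YT-ECKO, L12-ECKO and WT, while Ndufa4 averaged 9.62 ± 0.63, 9.88 ± 1.07 and 9.60 ± 0.50. Cox7a2l, assigned here as a supercomplex factor by its name, averaged 11.23 ± 0.45, 10.82 ± 0.48 and 11.35 ± 0.32. Whether its protein joins complexes in this strain cannot be read from RNA. Atp5g1, Atp5g2 and Atp5g3 encode the same mature c subunit; Atp5g2 averaged 9.71 ± 0.28, 9.65 ± 0.79 and 9.78 ± 0.19, and Atp5g1 averaged 9.5 ± 0.33, 9.74 ± 1.19 and 10.52 ± 0.63 (SD, n = 4 each).

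**Figure D5:**
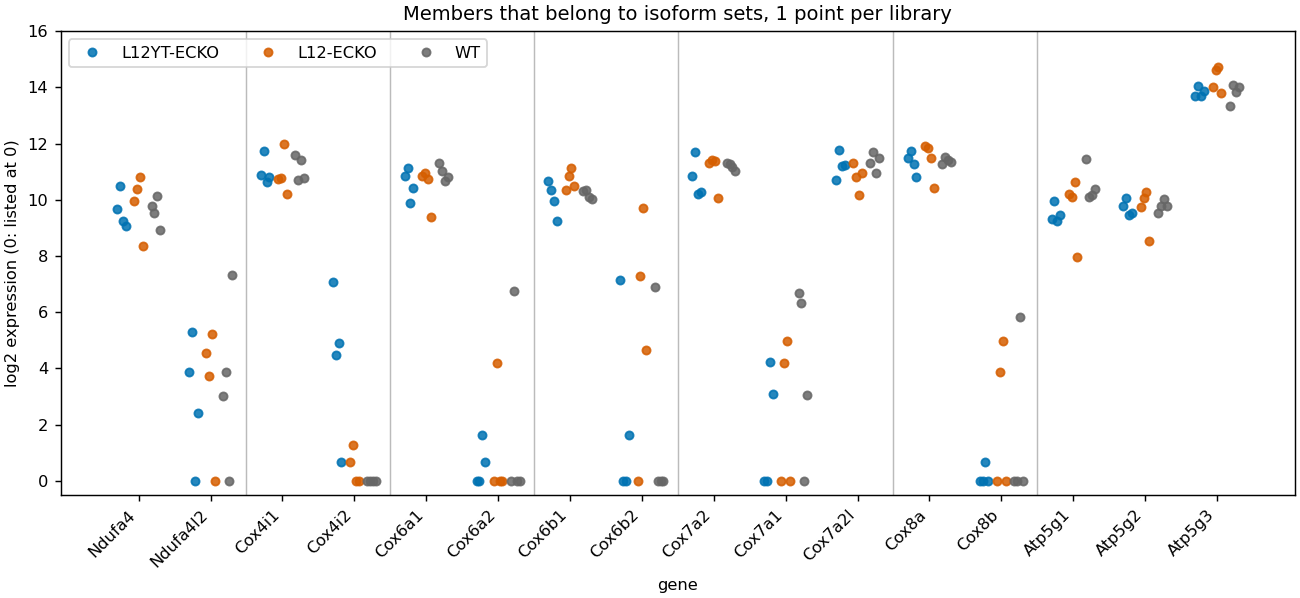
Log2 expression (vertical axis) in each library of the genes that form isoform sets (horizontal axis, sets divided by lines), with L12YT-ECKO, L12-ECKO and WT from left to right in each gene; each point is a library and 0 means listed at 0. The muscle forms Cox6a2 and Cox8b lie at 0 in 8 of the 12 libraries each, Cox7a1 lies above 0 in 7, and Cox4i2 lies above 4 in 3 L12YT-ECKO libraries.

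Promoters are shown for Ndufa1, as the called gene with an entry, for Sdhd, as the gene with the largest difference in L12-ECKO, and for Atp5g3, as the gene with the highest level; the choice was made after the values were seen. Nuclear respiratory genes are known to be driven by NRF1, by ETS-family factors such as GABP, and by YY1, and the TEAD factors are the DNA-binding partners of YAP and TAZ. RefSeq promoter windows (GRCm38.p6, 300 bases near the start of the gene) matched 81 of the 98 genes. The NRF1 motif, GCGCA followed by any base and GCGC, was present on either strand in 18 of the 81, or 22.2%, against 4.78% of 27025 promoters. The ETS motif CCGGAAG was present in 25.9% of the 81 against 9.12% of all, and the YY1 motif AAGATGGCG in 9.88% against 1.49%. The TEAD motif GGAATG was present in 9.88% of the 81 and in 14.6% of all promoters. The windows below are Ndufa1 at chrX:37191189-37191488, Sdhd at chr9:50603800-50604099 and Atp5g3 at chr2:73911277-73911576, all from the minus strand and written 5′ to 3′; capitals mark matches to the 4 motifs, which are not known to be bound here.
Ndufa1: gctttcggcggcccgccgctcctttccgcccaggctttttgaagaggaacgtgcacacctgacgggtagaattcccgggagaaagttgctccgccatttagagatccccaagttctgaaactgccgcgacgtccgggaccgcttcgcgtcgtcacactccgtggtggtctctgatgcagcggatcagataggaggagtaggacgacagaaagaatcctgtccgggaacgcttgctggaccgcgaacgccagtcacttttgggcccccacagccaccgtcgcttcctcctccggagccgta
Sdhd: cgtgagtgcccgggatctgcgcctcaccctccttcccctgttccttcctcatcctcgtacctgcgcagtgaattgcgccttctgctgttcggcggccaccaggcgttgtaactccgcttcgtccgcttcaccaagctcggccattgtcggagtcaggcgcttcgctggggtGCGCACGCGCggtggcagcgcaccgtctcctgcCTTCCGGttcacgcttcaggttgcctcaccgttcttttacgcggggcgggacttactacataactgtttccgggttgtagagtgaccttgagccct
Atp5g3: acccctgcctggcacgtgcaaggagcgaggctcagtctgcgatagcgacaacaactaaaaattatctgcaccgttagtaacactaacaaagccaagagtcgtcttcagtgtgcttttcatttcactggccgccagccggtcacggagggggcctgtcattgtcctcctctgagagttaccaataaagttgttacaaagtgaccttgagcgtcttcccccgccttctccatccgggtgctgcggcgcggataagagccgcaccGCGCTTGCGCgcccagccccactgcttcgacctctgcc
The Ndufa1 window holds none of the 4 motifs. It lies wholly upstream of the Ndufa1 start given above, chrX:37191163 on the minus strand, so it does not cover that start. That of Sdhd holds an NRF1 match and, downstream of it, an ETS match on the other strand, and that of Atp5g3 holds an NRF1 match close to the start. Timm8b starts within 1000 bases of Sdhd on the other strand, so the matches near Sdhd cannot be assigned to Sdhd alone. In L12-ECKO versus WT Timm8b differed by -0.44 (limma adjusted p = 0.762). Such a protein-coding neighbour was found for 35 of the 98 genes.

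Genes of the wider mitochondrial programme did not pass either. Lists were made of other respiratory chain and assembly genes, biogenesis regulators, the citric acid cycle, protein import and chaperones, and antioxidant enzymes and ADP/ATP carriers, with 37, 17, 18, 24 and 14 genes tested. limma called none of them in any comparison, where it called 0.481% of all genes in L12-ECKO versus WT, 0.0086% in L12YT-ECKO versus WT and 0.0688% in L12YT-ECKO versus L12-ECKO. The shares of all genes at an unadjusted p under 0.05, given above for each comparison, are the background for the counts at that level. In L12-ECKO versus WT their medians were -0.12, -0.07, 0.09, 0.13 and -0.16; at an unadjusted p under 0.05, 5 genes of the first list were higher and 3 lower, and in the other lists 0, 3, 2 and 2 were higher and 2, 0, 0 and 0 lower. In L12YT-ECKO versus WT 3, 0, 0, 2 and 0 genes of the 5 lists were higher at that level and 0, 1, 0, 0 and 0 lower, and in L12YT-ECKO versus L12-ECKO 1, 0, 0, 0 and 0 were higher and 1, 2, 1, 0 and 0 lower. In L12YT-ECKO versus WT the medians were -0.10, -0.40, 0.24, 0.08 and -0.14, and in L12YT-ECKO versus L12-ECKO they were -0.08, 0.13, -0.09, -0.16 and -0.17.

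2 genes of each list, those with the smallest p in any comparison, had the following values. Foxred1, a complex I assembly factor, averaged 9.27 ± 0.53 in L12-ECKO and 7.36 ± 0.62 in WT (SD, n = 4 each), a difference of 1.91 (SE 0.46, limma adjusted p = 0.0792). Ttc19, which acts in complex III assembly, averaged 7.66 ± 0.52 and 5.48 ± 0.53 in these groups, a difference of 2.18 (adjusted p = 0.203). Pcx, pyruvate carboxylase, which feeds the citric acid cycle, had 7.60, 9.06, 6.10 and 6.28 in L12-ECKO against 0, 0, 5.74 and 0 in WT (difference 5.83, adjusted p = 0.147), and Suclg1, a subunit of succinyl-CoA ligase, differed by 1.34 (adjusted p = 0.293). Timm17a, of the inner membrane translocase, differed by 1.498 (adjusted p = 0.244) and the protease Lonp1 by 1.09 (adjusted p = 0.377). Slc25a5, an ADP/ATP carrier, differed by 1.49 (adjusted p = 0.233) and Sod2, the mitochondrial superoxide dismutase, by 1.23 (adjusted p = 0.312). Sod2 was highest in L12-ECKO replicate 1, at 11.24, the library in which the mean of 6 neutrophil markers was also highest, at 11.005; their part in that value was not tested. Yy1, a transcription factor of respiratory genes, averaged 9.38 ± 0.48 in L12-ECKO and 10.22 ± 0.38 in WT (difference -0.84, adjusted p = 0.346). For each gene so far, the L12YT-ECKO mean lay between those of L12-ECKO and WT. These genes were picked for a small p between groups, which favours such an order, so no conclusion is drawn from it. How often the order holds over all genes was not tested. The L12YT-ECKO mean was 8.58 for Foxred1, 7.49 for Ttc19, 8.07 for Timm17a and 8.558 for Lonp1. Timm17a and Lonp1 averaged 8.44 and 8.562 in L12-ECKO and 6.94 and 7.47 in WT. Slc25a5 and Sod2 averaged 9.24 and 8.54 in L12YT-ECKO, 10.12 and 9.53 in L12-ECKO, and 8.635 and 8.30 in WT. Ppargc1b, a co-activator of mitochondrial biogenesis, averaged 0.26 ± 0.52 in L12YT-ECKO and 5.13 ± 2.65 in L12-ECKO, where the difference was -4.87 (adjusted p = 0.672), with 3 of the 4 L12YT-ECKO libraries listed at 0.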

How the data were processed

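RNA from sorted lung endothelial cells was made into 3′ end libraries with the Lexogen QuantSeq kit, per the labels' protocols, for 3 groups of 4 libraries. The submitters' processing notes name Bowtie2, edgeR and mm10; the version and role of each are not given in the sources used. The deposited tables hold values that the authors normalized; that they are log2 values, brought to one common distribution, was inferred from the values and is not stated. The 5000 highest values of the libraries differ by at most 0.168 rank by rank, so depth cannot be recovered and no counting interval is given. Each table lists 24421 genes; 27 date-named genes were left out, as were 34 rows displaced in 5 libraries, none of them a respiratory chain gene.

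The 11634 genes that reached a CPM of 1 in 4 or more libraries were kept; CPM was computed as 2 raised to the value, rescaled by its sum over all genes of the library, so that low values above 0 can fail. limma 3.58.1 with statmod 1.5.0 in R 4.3.3 was fitted to the deposited log2 values of all 12 libraries with a mean per group, a trend and robust moderation, and was tested on simulated data. Benjamini-Hochberg adjustment ran over all genes tested, and calls were made at an adjusted p under 0.05. Intervals are 95% intervals from this fit.

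Complexes were assigned from textbook roles. Genes named are those called, the 3 highest and the lowest of each complex, the smallest p per complex and comparison, the extreme differences, the isoform sets, genes with many zeros and 2 genes per related list; others, such as those with groups that do not overlap, were named after their values were seen. The respiratory chain genes and the lists were chosen with earlier results of these data known. Coordinates and near-identical transcript ends come from a GRCm38 annotation. Alternatives covered the filter, floor, scale, centring, trend, samples fitted, replicate numbers, batch and leaving out each library; sex as a covariate and the male libraries alone were added after seeing the data. 1 gene is not reported by name here.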

Additional observations from a re-analysis of the deposited data

Results flagged for a closer look

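In 16 of 141 sets of 4 libraries examined, 1 library stood far from the other 3 (Dixon's test at 95%). The test's rate of about 1 in 20 holds for continuous values of genes not picked by their values. A set with 1 value above 0 and the rest at 0 is flagged by construction, as for Cox6a2, Cox8b, Cox6b2 and Ndufaf6. The genes examined include some named for many zeros or extreme differences, so the share flagged cannot be set against that rate. In L12YT-ECKO these were Sdhd in replicate 4, at 6.62, and Cox8b in replicate 3, at 0.65, the one value of its group above 0. In L12-ECKO they were Ndufa2 in replicate 1, at 11.52, and Ndufaf6 in replicate 1, at 2.18, where the other 3 libraries are listed at 0. L12-ECKO replicate 2 stood apart for Cox6a2, at 4.18, and for Cox19, at 6.51, and L12-ECKO replicate 4 was low for Ndufab1, at 1.76, for Cox6a1, at 9.37, and for Cox7a2, at 10.08. The complex II median of L12-ECKO replicate 3, at 9.92, stood above the rest of its group. In WT, replicate 1 was high for Cox6c, at 11.34, and for Cox6b2, at 6.91, and low for Cox19, listed at 0, and for the complex IV median, at 10.04. WT replicate 2 was the one WT library with Cox6a2 above 0, at 6.77, and WT replicate 3 the one with Cox8b above 0, at 5.84.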

How the results depend on the processing

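In L12-ECKO versus WT, 2 respiratory chain genes were called. The number was 1 on a log2(value + 1) scale, 1 with only the compared groups in the fit and 1 with the replicate block (adjusted p = 0.0245 for Cox17 and 0.054 for Ndufa1). It was 0 without a trend in the prior variance, 0 with the batch as a covariate, 0 within the libraries without displaced rows, 0 with sex as a covariate, 0 within the male libraries, and 0 to 2 when 1 library was left out. The replicate numbers do not pair the libraries: deviations of same-numbered libraries correlated at -0.05 to 0.06. Over all genes tested this comparison gave 56 calls, 27 on the log2(value + 1) scale, 7 without the trend, 30 with only the compared groups, 15 with the batch as a covariate, 15 with sex as a covariate and 15 to 80 without 1 library. L12YT-ECKO versus L12-ECKO gave 8 calls, 4 on the log2(value + 1) scale, 3 without the trend, 5 with only the compared groups, 5 with sex as a covariate, 16 within the male libraries, 14 without and 0 with displaced rows, and 4 to 9 without 1 library. L12YT-ECKO versus WT gave 1 call, 0 without the trend and 3 without WT replicate 1. In the other comparisons no respiratory chain gene was called under any alternative. The complex medians moved by more than the spread within groups in 6 cases and stayed within it in 432. In L12-ECKO versus WT, complex IV had a median of 0.43 with the batch as a covariate and complex II 0.091 on the log2(value + 1) scale, which compresses differences. In L12YT-ECKO versus L12-ECKO, complex II had -0.082 on that scale, and within the libraries without displaced rows complexes I, IV and V had 0.18, 0.12 and 0.18. The causes of the other shifts were not tested. Depth is unknown, and genes with low values or zeros, most of them assembly factors, are measured least precisely.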
